A study of Mus musculus with 8 samples.

Results

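The Ahnak, Lgals1, S100 and annexin genes are 10 mouse genes of the cell cortex, of calcium signalling and of the cytoskeleton: Ahnak, Lgals1, Lgals3, S100a4, S100a6, S100a10, S100a11, Anxa2, Anxa6 and Vim. They were chosen by name from the 55573 genes of the count table, as genes linked to the memory state of T cells, and the choice was made with results of these libraries known, the genotype comparison included. The genotype values of these genes are therefore a description. Where the fit over all genes called or did not call them, that is printed beside the share of all genes called, and nothing is read from it. The sequenced RNA came from naive CD8+ T cells, resting cytotoxic lymphocytes that have not met antigen, taken from spleen and lymph nodes of male C57BL/6 mice, enriched magnetically by CD8a and then sorted. There were 5 Furin KO libraries, 1 from a mouse of 7 weeks (replicate 1) and 4 from mice of 8 weeks, and 3 WT libraries, 1 of 7 weeks (replicate 1) and 2 of 8 weeks. The labels name no treatment, and do not say which part of Furin was removed, in which cells, by what driver, or whether mice were pooled. Whether each library is a separate animal is not stated, and a p-value here reflects only how these samples vary among themselves, which can be technical variation.

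AHNAK is a giant scaffold protein under the plasma membrane. S100 proteins are small calcium sensors that mostly work as dimers, and annexins bind membrane phospholipids when calcium rises. S100A10, which has lost calcium binding, joins annexin A2 in a complex that also binds AHNAK. Galectins are lectins that bind beta-galactosides on surface glycoproteins, and vimentin builds the intermediate filaments that stiffen lymphocytes. Several of these genes, S100a4, S100a6, Anxa2, Lgals1 and Lgals3 among them, are commonly low in naive T cells and higher in effector and memory T cells.

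Promoters are shown for 3 of the genes. Ahnak had the lowest genotype value and the highest age value of the 7 tested genes. The others are a pair of S100 genes of chromosome 3. S100a11 had reads in every library, and for S100a4 no read was counted. Each promoter is the 250 bases before the annotated start, from RefSeq on GRCm38.p6, all on the plus strand and written 5′ to 3′. The Ahnak window is chr19:8989034-8989283, the S100a11 window chr3:93520246-93520495 and the S100a4 window chr3:90603520-90603769. Capitals mark matches, on either strand, to the GC box GGGCGG, the TATA box TATAAA and the AP-1 motif TGANTCA.
Ahnak: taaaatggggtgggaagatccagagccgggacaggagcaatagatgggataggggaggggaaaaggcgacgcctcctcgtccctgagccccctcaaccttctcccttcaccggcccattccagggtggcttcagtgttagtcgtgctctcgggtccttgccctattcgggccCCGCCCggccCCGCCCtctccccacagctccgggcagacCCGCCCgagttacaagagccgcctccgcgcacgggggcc
S100a11: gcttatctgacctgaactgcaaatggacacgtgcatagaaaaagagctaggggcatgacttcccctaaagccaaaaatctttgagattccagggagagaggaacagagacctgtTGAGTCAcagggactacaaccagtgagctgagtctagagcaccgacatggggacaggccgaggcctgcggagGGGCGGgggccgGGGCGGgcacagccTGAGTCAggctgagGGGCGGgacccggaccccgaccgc
S100a4: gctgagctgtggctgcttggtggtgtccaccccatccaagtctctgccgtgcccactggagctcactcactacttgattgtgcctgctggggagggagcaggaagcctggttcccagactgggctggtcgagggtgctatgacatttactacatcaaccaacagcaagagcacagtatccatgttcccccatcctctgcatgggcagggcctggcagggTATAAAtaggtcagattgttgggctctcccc
The Ahnak window held 3 GC boxes, 78, 68 and 39 bases before the start. The S100a11 window held 3 GC boxes, at 64, 52 and 24 bases, and 2 AP-1 motifs, at 136 and 38 bases. The S100a4 window held neither of these, and a single TATA box 31 bases before the start. None of these matches overlapped another. Among 32841 RefSeq windows of the same length, 32.7% held a GC box, 12.4% a TATA box and 6.75% an AP-1 motif. The matches are letters only and say nothing of binding. RefSeq windows were found for 7 of the 10 genes. Of the other 4, Anxa2 (chr9:69453433-69453682) held all 3 motifs, Vim held a TATA box 32 bases before the start, Lgals3 held a GC box at 7 bases and S100a6 held none. Lgals1, S100a10 and Anxa6 had no entry.

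Total counts ran from 11308220 to 21040431 per library, and 12500 genes were tested. The sorted cells carried the transcripts of CD8 T cells: the summed level of Cd8a, Cd8b1, Cd3e, Cd3d and Cd3g was 4858 to 5956 CPM in WT and 5118 to 6104 CPM in Furin KO, where CPM is counts scaled to a common library size. The summed markers of other cells ranged as follows in WT and in Furin KO: myeloid 5.11 to 12.8 and 4.84 to 13.3 CPM with Csf1r, Cd14 and Adgre1 at 0, B cell 20.7 to 28.7 and 19.5 to 28.6 CPM with Ms4a1 at 0, and stromal 1.72 to 3.23 and 1.15 to 4.92 CPM with Col1a2, Col3a1 and Pdgfra at 0. Dendritic cell markers summed to 0.206 to 2.02 and 0.527 to 3.30 CPM. NK cell markers summed to 323 to 367 and 316 to 411 CPM, mostly Nkg7, with Ncr1 and Klra8 at 0. Endothelial markers summed to 214 to 227 and 216 to 252 CPM, with Kdr, Vwf and Cldn5 at 0. Only 1 of the 5 endothelial genes had enough counts to be tested. CD4 and regulatory T cell markers summed to 35.4 to 50.3 CPM in WT and 47.8 to 68.0 CPM in Furin KO. Most of this sum was Izumo1r, with means of 39.8 CPM in WT and 56.3 CPM in Furin KO. The other tested markers went the other way. Foxp3 had means of 2.06 CPM in WT and 1.07 CPM in Furin KO, and Il2ra 0.826 and 0.582 CPM. Cd4 and Zbtb7b had too few counts to be tested. The part of these markers in the genotype values was not tested. All 6 neutrophil genes and all 6 erythroid and platelet genes were at 0 in every library. The libraries were grouped by chi-square distance with the number of sets fixed at 3, and each set held 1 WT library. The distance was taken on raw counts and grows with depth. The first holds replicate 1 of both genotypes, the 7-week libraries. The second holds WT replicate 2 beside replicates 2 and 3 of Furin KO. The third holds WT replicate 3 beside replicates 4 and 5 of Furin KO. In the order of the sample titles, the libraries of each set stand next to each other. Summed early response genes such as Fos and Egr1 were 744 to 1289 CPM in the second set and 3236 to 4461 CPM in the other two. The count of Furin itself was not lower under the Furin KO label, at 69.3 ± 11.8 CPM (SD, n = 5) against 63.6 ± 5.71 CPM (n = 3) in WT. The whole-gene count does not show which exons carry reads, so it does not check the labels, and directions below are between libraries labelled Furin KO and WT.

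The 10 genes split into 3 at or near 0 counts, S100a4, S100a6 and Lgals3, and 7 with reads in every library. S100a4 (ENSMUSG00000001020, GRCm38 chromosome 3, 90603771 to 90606045), which encodes a motility-linked S100 protein, had 0 counts in all 8 libraries. A count of 0 allows up to 0.143 to 0.265 CPM per library, and 0.0208 CPM over the libraries together, for counting error only. S100a4 overlaps Gm42674, a protein-coding gene on the same strand that also had 0 counts. How reads shared by several genes were treated is not given, so the 0 of S100a4 may not give its level. S100a6 (ENSMUSG00000001025, chromosome 3, 90612882 to 90624181), which encodes calcyclin, had 6 counts in all, 4 of them in WT replicate 3 and 1 each in Furin KO replicates 1 and 4. Lgals3 (ENSMUSG00000050335, chromosome 14, 47367751 to 47386160), which encodes galectin-3, had 6 counts, all in Furin KO replicate 4. These 3 genes did not pass the filter on low counts, so the genotypes could not be compared for them, and the other 7 passed it in both groups. In bulk RNA, fewer cells that carry a transcript and less transcript per cell cannot be told apart.

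The 7 expressed genes spread over a wide range when set per kilobase of exonic length. Anxa6, a large annexin, was the most abundant at 299.7 CPM per kb (266 to 325 over the 8 libraries). S100a10 followed at 151 CPM per kb (122 to 185). Vim, at 90.9 CPM per kb (80.9 to 95.2), and S100a11, at 88.3 CPM per kb (77.6 to 104), were within each other's range, and Lgals1 came next at 65.5 CPM per kb (51.3 to 85.6), a range that overlapped those of Vim and S100a11. Ahnak was far lower at 7.04 CPM per kb (4.68 to 10.8) and Anxa2 lowest at 1.98 CPM per kb (0.945 to 2.56), so the mean of S100a10 was well above that of its binding partners on this scale. The spread between libraries differed as well. The coefficient of variation over the 8 libraries was 5.50% for Vim and 5.68% for Anxa6, against 29.2% for Ahnak, 27.2% for Anxa2 and 20.7% for Lgals1.

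**Figure D1:**
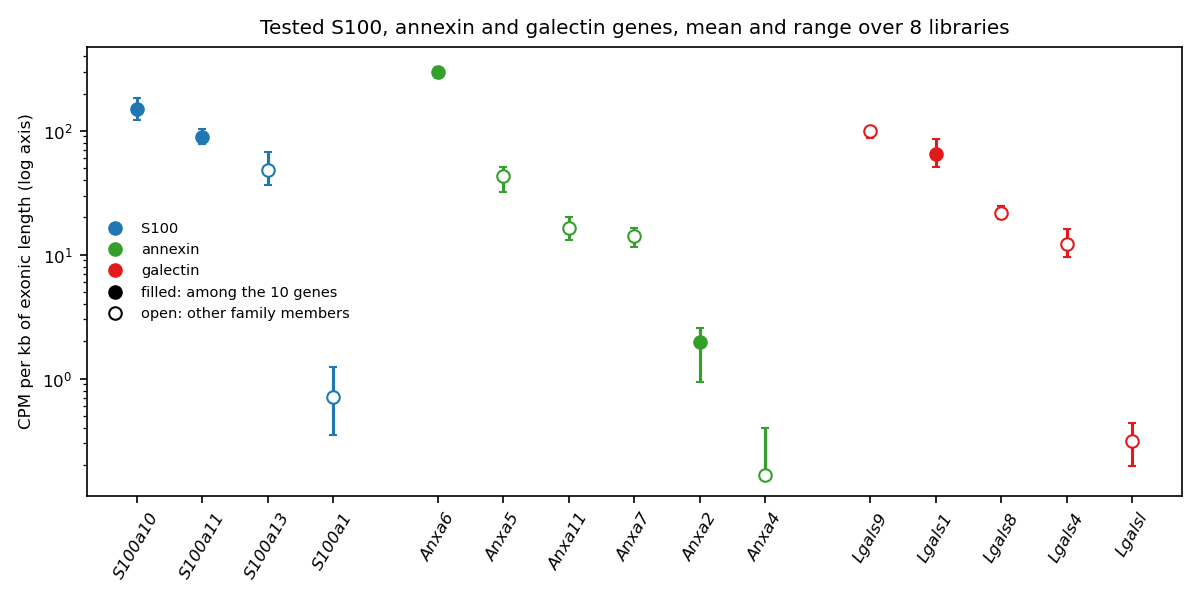
CPM per kb of exonic length (vertical log axis) for the tested S100, annexin and galectin genes, with points for the mean and bars for the lowest and highest of 8 libraries. Filled points are among the 10 genes and open points are other family members; Anxa4 had 0 counts in at least 1 library, so its lower bar cannot be drawn, and Anxa6 lies highest at 299.7 CPM per kb.

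Ahnak (ENSMUSG00000069833, GRCm38 chromosome 19, 8989284 to 9076914, plus strand) has 19938 exonic bases, of which 17498 lie in its longest exon. Its level was 215, 176 and 143 CPM in WT replicates 1 to 3, and 146, 93.3, 141, 97.3 and 112 CPM in Furin KO replicates 1 to 5. WT replicate 1 was highest and Furin KO replicates 2 and 4 lowest. The groups overlapped, since Furin KO replicate 1 stood just above WT replicate 3. The means were 118 ± 24.5 CPM in Furin KO (n = 5) and 178 ± 36.1 CPM in WT (n = 3), a log2 fold change of -0.59 (SE 0.15), or 0.663 of the WT mean. Each Furin KO library lay below the WT library of its own set, and the log2 ratios within the sets were -0.55, -0.59 and -0.45 in sets 1, 2 and 3. With the set as a factor the log2 fold change was -0.53 (SE 0.10). Leaving out each library in turn gave -0.73 to -0.43.

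Lgals1 (ENSMUSG00000068220, chromosome 15, 78926725 to 78930465, plus strand) encodes galectin-1, a secreted lectin that T cells make on activation and that can limit T cell survival. Its level was 77.0, 77.3 and 58.1 CPM in WT and 46.3, 50.6, 52.5, 48.9 and 62.5 CPM in Furin KO. WT replicates 1 and 2 stood above every other library, while Furin KO replicate 5 passed WT replicate 3, so the groups overlapped. The means were 52.2 ± 6.21 CPM and 70.8 ± 10.99 CPM, a log2 fold change of -0.44 (SE 0.13). The difference was unequal between the sets: -0.73 in set 1, -0.59 in set 2 and -0.06 in set 3. With each library left out in turn it stayed between -0.56 and -0.37.

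**Figure D2:**
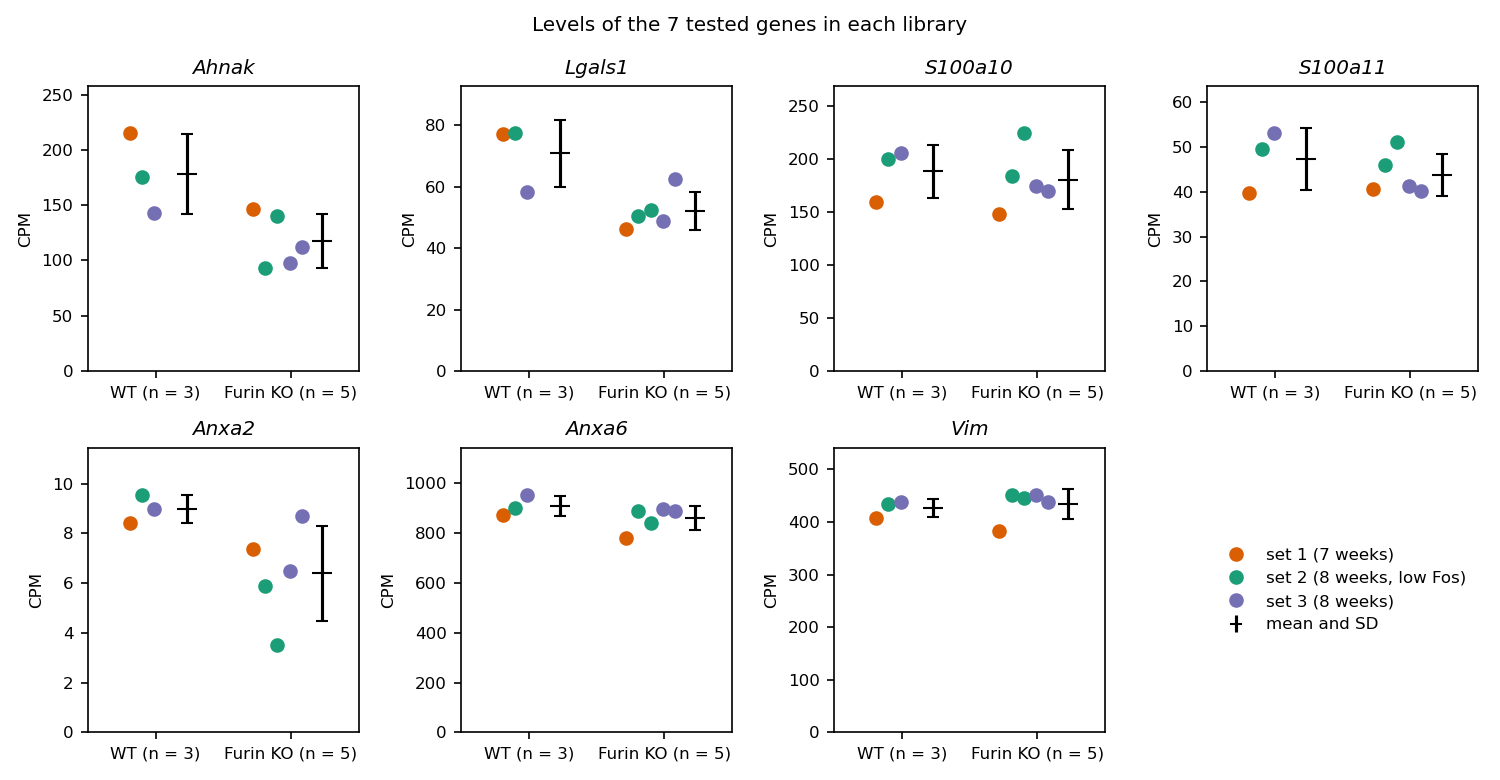
CPM (vertical axes from 0, a separate scale for each gene) of the 7 tested genes in the 3 WT and 5 Furin KO libraries, with points for libraries, colours for the sets of similar libraries and bars for the mean and SD. In every panel the Furin KO and WT points overlap; as a ratio, the means lie furthest apart for Ahnak (118 and 178 CPM), Anxa2 and Lgals1.

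The S100 pair differed little by genotype. S100a10 (ENSMUSG00000041959, chromosome 3, 93555080 to 93564643, plus strand) was at 159.6, 199.9 and 205 CPM in WT and at 148, 184, 224, 174 and 169.8 CPM in Furin KO. Both 7-week libraries were the lowest of all 8, and Furin KO replicate 3 was the highest. The means were 180.0 ± 27.8 CPM in Furin KO and 188 ± 24.8 CPM in WT, with a log2 fold change of -0.06 (SE 0.12) whose sign turned to 0.0046 without WT replicate 3 and 0.0019 without Furin KO replicate 1. S100a11 (ENSMUSG00000027907, chromosome 3, 93520488 to 93526287, plus strand), a calcium-binding partner of annexins, was at 39.7, 49.5 and 53.0 CPM in WT and 40.7, 45.9, 51.1, 41.3 and 40.1 CPM in Furin KO. Its lowest library was WT replicate 1 and its highest WT replicate 3, so the Furin KO values lay inside the WT range. Its log2 fold change was -0.11 (SE 0.13), with 0.04, -0.03 and -0.38 in sets 1, 2 and 3. It was -0.22 without WT replicate 1 and -0.02 without WT replicate 3.

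S100a10 and S100a11 lie 28.8 kb apart and followed each other across libraries. Over the 8 libraries Pearson's r of their log2(CPM + 1) was 0.907 (exact permutation p = 0.00206, two-sided, adjusted p = 0.0432 over 21 pairs of the 7 genes). Spearman's rho was 0.905 (exact permutation p = 0.00456, adjusted p = 0.0958). Without Furin KO replicates 1 and 3, the 2 libraries farthest from the median of S100a10, r was 0.972. No set holds 6 libraries, so r could not be given within a set, and after subtracting the mean of each set it was 0.847. Of the 21 pairs, 1 r passed the adjustment, that of S100a10 and S100a11. Among 8322 genes outside the 10 ranked by r with S100a10, the highest passed S100a11, such as Cyb5r4 (r = 0.985) and Cd9 (r = 0.982). They were picked as the top of that ranking and the named pair was not, so these r are not alike. The part of distance and of transcript length in the r of the pair was not tested. The permutations treat the 8 libraries as exchangeable and do not take the sets into account. Between S100a10 and Anxa2, whose proteins form a complex, r was -0.40 (exact permutation p = 0.330, adjusted p = 0.594). It turned to 0.247 without the same 2 libraries and was -0.21 after subtracting the set means. Ahnak and Lgals1 had r = 0.697 (exact permutation p = 0.0579, adjusted p = 0.405), with 0.479 without the 2 libraries farthest from the median of Ahnak and 0.802 after subtracting the set means.

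Of the annexins, Anxa2 (ENSMUSG00000032231, chromosome 9, 69453620 to 69491795, plus strand), which joins S100A10 at membranes, was at 8.44, 9.55 and 8.995 CPM in WT and at 7.37, 5.89, 3.53, 6.48 and 8.70 CPM in Furin KO. These levels rest on 66 to 183 counts per library, and the lowest was Furin KO replicate 3. The WT libraries lay close together, and only Furin KO replicate 5 reached into their range. The means were 6.39 ± 1.92 and 8.995 ± 0.554 CPM, a log2 fold change of -0.50 (SE 0.26), with -0.20, -1.02 and -0.24 in sets 1, 2 and 3. Each Furin KO library was below the WT library of its own set here too. Anxa6 (ENSMUSG00000018340, chromosome 11, 54979108 to 55033445, minus strand) was at 874, 901 and 953 CPM in WT and at 781, 887, 842, 897 and 889.8 CPM in Furin KO. Furin KO replicate 1 was lowest and WT replicate 3 highest, and the groups overlapped. The means were 859 ± 48.8 and 909 ± 39.9 CPM, a log2 fold change of -0.08 (SE 0.08), and again each Furin KO library was below the WT library of its set.

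Vim (ENSMUSG00000026728, chromosome 2, 13573927 to 13582826, plus strand) was at 408, 433 and 439 CPM in WT and at 384, 451, 446, 451 and 438 CPM in Furin KO. Both 7-week libraries were below the other 6, which stood within a narrow band in both genotypes. The means were 434 ± 28.7 CPM in Furin KO and 427 ± 16.5 CPM in WT. The log2 fold change of 0.02 (SE 0.09) turned to -0.0028 without WT replicate 1.

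**Figure D3:**
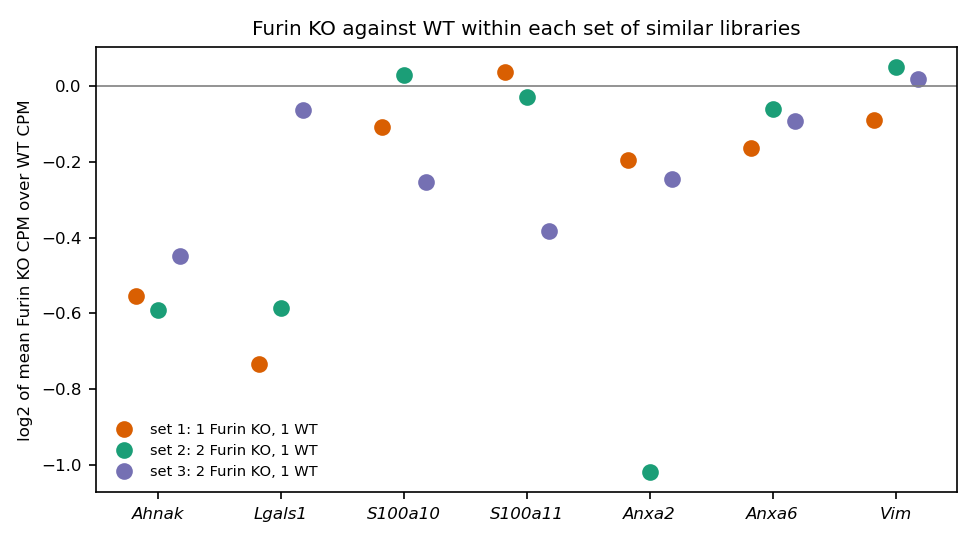
Log2 of the mean Furin KO CPM over the WT CPM (vertical axis) for the 7 tested genes within each set of similar libraries, 1 point per set, each with 1 WT library and 1 or 2 Furin KO libraries. Ahnak lies between -0.59 and -0.45 in the 3 sets, while Lgals1 runs from -0.73 to -0.06 and Anxa2 from -1.02 to -0.20.

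Across all 12500 genes, edgeR's quasi-likelihood test called 4 by genotype (0.0320%), and 0 of the 7 tested genes was among them. At an unadjusted p under 0.05 it held 401 genes (3.21%), Ahnak and Lgals1 among them. DESeq2, which called 0.111% of its 12648 genes with an adjusted p, and limma-voom, which called 0.0400% of 12500, also called 0 of the 7. At an unadjusted p under 0.05 DESeq2 held 3.53% of its genes and 2 of the 7, and limma-voom 3.42% and 3 of the 7. The log2 fold change was below 0 for 6 of the 7 genes and for 50.2% of all tested genes, and the medians were -0.11 and -0.00068. Groups that did not overlap were found for 0 of the 7 genes and for 2.90% of all genes. Each Furin KO library was below the WT library of its own set for 3 of the 7 (Ahnak, Anxa2 and Anxa6) and for 6.22% of all genes. Since the genes were chosen with this contrast known, nothing is read from these counts. One gene of the 7, Ahnak, was called where no filter on low counts was applied (0.190% of all genes) and where the set was a factor (0.0960%).

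Age was not used to choose the genes, though other results of these libraries were known when the choice was made. The 7-week and 8-week libraries could be compared with genotype in the model. Age coincides with the first set and with the first 2 sample titles, so age and anything else those libraries share cannot be told apart. The test called 42 of 12500 genes by age (0.336%), 32 higher and 10 lower at 7 weeks, and 0 of the 7. At an unadjusted p under 0.05 it held 13.5% of all genes and 2 of the 7 (Ahnak and S100a10). The log2 difference was below 0 for 51.0% of all genes and 5 of the 7, with medians of -0.0063 and -0.13. By limma-voom 0 of the 7 was called where 0.912% of all genes were, and at an unadjusted p under 0.05 there were 3 of the 7 where there were 14.5% of all genes. DESeq2 gave an adjusted p by age to 7990 genes, 6 of the 7 among them. Of these, 3 of the 6 and 17.7% of the 7990 were at an unadjusted p under 0.05. The count of 42 rested on single libraries: it was 0 without Furin KO replicate 1 or 2, 1 without WT replicate 1, 11 without WT replicate 3, and 21 and 19 without Furin KO replicates 4 and 5. Leaving out WT replicate 1 or Furin KO replicate 1 leaves a single 7-week library, which is assumed to vary like the rest.

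The genes did not share a direction with age. S100a10 was at 154 ± 8.16 CPM at 7 weeks (n = 2) and 193 ± 20.5 CPM at 8 weeks (n = 6), and the ages did not overlap. Its log2 difference, 7 minus 8 weeks, was -0.34 (SE 0.11), with an edgeR adjusted p of 0.172, and DESeq2, in which 4.41% of 7990 genes were called and 6 of the genes had an adjusted p, called it. Vim was at 396 ± 17.2 CPM and 443 ± 7.51 CPM, also without overlap, with a log2 difference of -0.16 (SE 0.08) and an edgeR adjusted p of 0.377. Libraries of 7 weeks lay below all of 8 weeks for these 2 of the 7 genes and for 8.15% of all genes, and above all of 8 weeks for 0 of the 7 and 8.04% of all genes. S100a11 was at -0.24 (SE 0.13) and Anxa6 at -0.13 (SE 0.07), with edgeR adjusted p-values of 0.458 and 0.455. Ahnak went the other way, at 181 ± 48.5 CPM at 7 weeks and 127 ± 31.9 CPM at 8 weeks, a log2 difference of 0.42 (SE 0.13) with an edgeR adjusted p of 0.180. It was called where no filter was applied (1.39% of all genes). Lgals1 was at -0.02 (SE 0.14) and Anxa2 at 0.09 (SE 0.30).

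**Figure D4:**
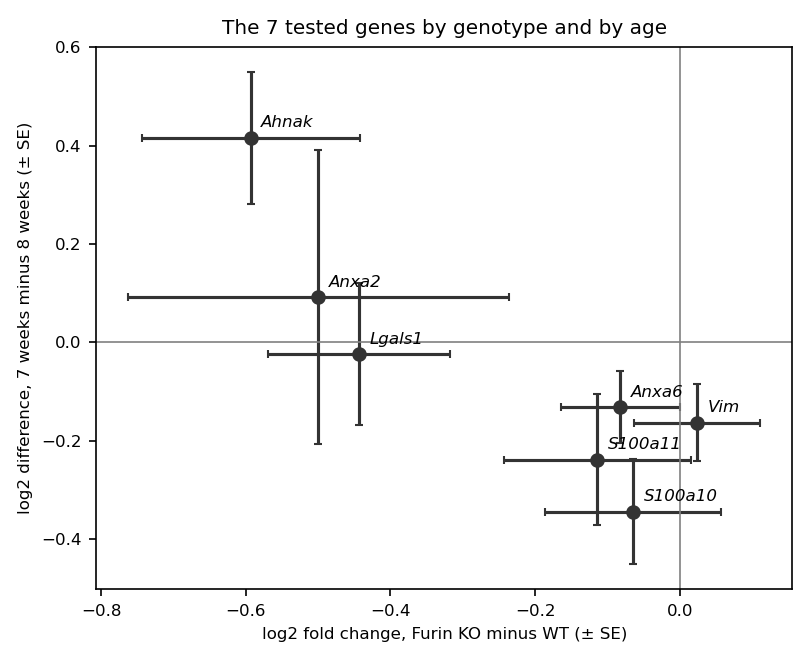
Log2 fold change of Furin KO against WT (horizontal axis) and log2 difference of 7 against 8 weeks with genotype in the model (vertical axis) for the 7 tested genes, with bars of 1 SE. Ahnak stands alone at -0.59 and 0.42, and S100a10, S100a11, Anxa6 and Vim lie near 0 by genotype and below 0 by age.

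The age values differed by the exonic length of the gene. Age and anything else that the 7-week libraries share cannot be told apart here either. Among 8328 genes of at least 10 CPM, the median log2 difference, 7 minus 8 weeks, was -0.20 for the 914 genes under 2 kb of exonic length, -0.06 for 2 to 5 kb, 0.05 for 5 to 10 kb and 0.16 for the 897 genes of 10 kb or more. Of the short genes 18.8% were above 0, and of the long genes 83.7%. The corresponding medians by genotype were close to 0, from -0.0095 to 0.0075. Ahnak is among the longest transcripts, and Lgals1, S100a10 and S100a11 are among the short ones. Lgals1, with 903 exonic bases, had an age value of -0.02, against -0.34 for S100a10 and -0.24 for S100a11. Of the 897 long genes, 71 had an age value at or above that of Ahnak, Ahnak included. Of all 12500 tested genes, those under 10 CPM among them, 497 had a genotype value at or below that of Ahnak. Of the 897 long genes, all of at least 10 CPM, 5 did, so these 2 counts have unlike bases. Both include Ahnak and rank a value that was known when the gene was chosen. The part of length in the age values of these genes was not tested.

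**Figure D5:**
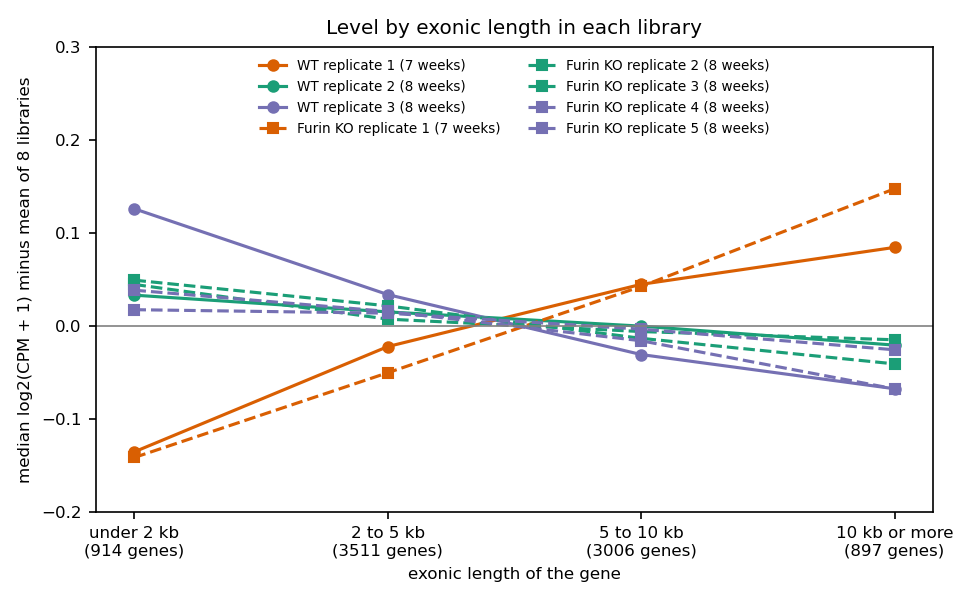
Median log2(CPM + 1) minus the mean of the 8 libraries (vertical axis) over genes in 4 classes of exonic length (horizontal axis), 1 line per library, with solid lines for WT, dashed lines for Furin KO and colours for the sets. Both 7-week libraries run from -0.14 in genes under 2 kb up to 0.08 (WT replicate 1) and 0.15 (Furin KO replicate 1) in genes of 10 kb or more, while the 6 libraries of 8 weeks fall with length, WT replicate 3 most from 0.13 to -0.07. Because the mean of the 8 libraries is subtracted, a rise in some libraries brings a fall in the others.

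The other genes of these families and of the memory and naive states were followed in fixed lists. With edgeR 0 of the 81 tested was called by genotype, where 0.0320% of all genes were, and 7 had an unadjusted p under 0.05, where 3.21% of all genes did. Of the 7, 4 were lower in Furin KO. The genotype value was below 0 for 40 and above 0 for 41. DESeq2 and the test without a filter called Tbx21, the T-bet transcription factor of effector cells, and Igfbp4, a naive-state gene. The fit with the set as a factor called Igfbp4, and limma-voom called 0 of the 81, with 6 at an unadjusted p under 0.05, where 3.42% of all genes were. Igfbp4 was at 781 ± 153 CPM in Furin KO and 532 ± 14.6 CPM in WT, a log2 fold change of 0.56 (SE 0.13). Tbx21 was at 6.73 ± 1.501 and 2.02 ± 0.826 CPM, a log2 fold change of 1.74 (SE 0.35).

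Of 13 other S100 genes 8 had 0 counts in every library and 2 were tested. S100a13, which takes part in the unconventional release of growth factors, was at 38.6, 36.4 and 48.4 CPM in WT and 26.1, 29.7, 37.1, 32.97 and 27.3 CPM in Furin KO. The groups overlapped only in that Furin KO replicate 3 passed WT replicate 2. Its log2 fold change was -0.42 (SE 0.14, edgeR adjusted p = 0.9998), and -0.50 to -0.29 with each library left out. S100a1 was barely detected, at 0.478 ± 0.274 and 0.507 ± 0.0513 CPM. The S100 genes on chromosome 3 number 14, of which 12 lie within 1 Mb of S100a4 and 8 had 0 counts, S100a4 among them, while S100a10 and S100a11 lie 2.93 Mb or less beyond S100a6.

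Of 10 other annexins, 4 had 0 counts in every library (Anxa3, Anxa8, Anxa10 and Anxa13). Another 4 were tested, all with a value above 0 and 0 called, of which Anxa4 had a mean of only 0.767 CPM. Anxa5, which binds phosphatidylserine, was at 80.4 ± 8.79 CPM in Furin KO and 70.8 ± 12.4 CPM in WT. Anxa7 was at 85.5 ± 9.61 and 83.6 ± 12.2 CPM, and Anxa11 at 70.4 ± 10.5 and 65.1 ± 4.32 CPM. Anxa1, the partner of S100A11 in many cells, had 1 count in all libraries. Of 8 genes for other galectins or their ligand, 3 had 0 counts (Lgals2, Lgals7 and Lgals12) and 5 were tested, all with a value above 0 and 0 called. Lgals9, galectin-9, was at 214 ± 17.7 and 207 ± 13.2 CPM and was the only galectin above Lgals1 per kilobase, at 98.8 CPM per kb. Lgals3bp, a secreted galectin ligand, was at 242 ± 11.9 and 229.8 ± 20.5 CPM, and Lgals8 at 79.7 ± 6.74 and 79.3 ± 10.6 CPM.

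In the list of intermediate filaments and their linkers 7 of 13 were tested, with genotype values of -0.34 to 1.73, and 0 called by genotype. The highest value was that of Dst, a linker of filaments, at 1.80 ± 1.09 and 0.542 ± 0.289 CPM in Furin KO and WT (1.73, SE 0.84). Plec, plectin, was at 637 ± 43.7 and 732 ± 50.2 CPM (-0.20, SE 0.09), and Lmnb1, a nuclear lamin, at 37.0 ± 3.24 and 44.3 ± 4.27 CPM (-0.26, SE 0.12). Macf1, a giant linker of actin and microtubules, was at 2129 ± 662 and 2015 ± 221 CPM by genotype. It was higher at 7 weeks, with a log2 difference of 0.56 (SE 0.11, edgeR adjusted p = 0.0497), highest in Furin KO replicate 1 at 3282 CPM. That call was lost without WT replicate 3 and without Furin KO replicate 1, 2, 4 or 5. All 26 cortical actin and membrane linker genes were tested, 21 with a genotype value below 0, a median of -0.05 and 0 called. Of the abundant ones, Actb was at 3465 ± 580 and 3577 ± 548 CPM and Myh9, the non-muscle myosin heavy chain, at 2454 ± 168 and 2730.1 ± 15.97 CPM. By age, 11 of the 26 had an unadjusted p under 0.05, all lower at 7 weeks, where 13.5% of all genes had such a p, and 1 was called, where 0.336% of all genes were. It was Tmsb4x, the actin-sequestering thymosin, at -0.37 (SE 0.06, edgeR adjusted p = 0.0331), a call lost without WT replicate 1 or 3 or Furin KO replicate 1 or 2. The part of transcript length in the age values of this list was not tested.

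Of 31 other memory-linked genes 22 were tested and 0 called, 9 below 0 and 13 above, with a median of 0.0042 and a range from -1.06 (Gzmm) to 1.74 (Tbx21). Itgal, a chain of the LFA-1 integrin, was at 648 ± 46.3 and 626 ± 79.1 CPM, Itga4 at 352 ± 76.5 and 385 ± 19.9 CPM, and Nkg7, a granule membrane protein gene, at 312 ± 35.5 and 311 ± 24.1 CPM. All 15 naive genes were tested and 0 called, 5 below 0 and 10 above, with a median of 0.02. Tcf7 was at 2262 ± 158 and 2233 ± 224 CPM, and Ets1 at 1292 ± 52.9 and 1414 ± 83.5 CPM. The summed memory-linked list was 2641 to 2840 CPM in Furin KO and 2704 to 2764 CPM in WT, and the summed naive list 10830 to 12051 and 10968 to 11470 CPM, so the groups overlapped in both.

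The genes most like Ahnak, Lgals1 and S100a10 were found by Pearson's r of log2(CPM + 1) over the 8 libraries, among 8322 genes of at least 10 CPM. All libraries of the comparison enter these r, set and genotype included, so they are descriptions. For Ahnak they were Cmtr2 (r = 0.988), an mRNA cap methyltransferase, Atg9a (0.944), an autophagy lipid scramblase, Cldnd1 (0.924), Serinc5 (0.921) and Snx14 (0.918). After the means of the sets were subtracted, r for these was 0.982, 0.956, 0.916, 0.954 and 0.870. For Lgals1 they were Adgre5 (0.957), the CD97 adhesion receptor, Tmco3 (0.933), Atg16l2 (0.915), Gprc5b (0.904) and Rdh11 (0.901). For S100a10 they were Cyb5r4 (0.985), Cd9 (0.982), a tetraspanin, Rras (0.978), Bpnt1 (0.971) and Cdc42se2 (0.968).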

How the data were processed

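For the 8 libraries (total RNA, sorted naive CD8+ T cells) the authors deposited raw gene counts in 1 table. FastQC, Trim Galore, STAR, DESeq2 1.24.0 and the build GRCm38 appear in the submitters' processing notes. The counting program, its annotation, its strand setting and its treatment of reads shared by several genes are not given in the sources used for this text. Counts of overlapping genes are therefore uncertain, such as S100a4 and the uncounted Gm42674, or Anxa2 and 2 uncounted neighbours. Each column was assigned by the title of its sample. Furin KO replicate 4 has its column among those of WT, and was used as labelled. Symbols and coordinates came from GENCODE M21 (55480 IDs found, 93 not found).

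These deposited counts were fitted with edgeR 4.0.16 (R 4.3.3, limma 3.58.1), with TMM scaling, filterByExpr by genotype and its quasi-likelihood test, two-sided. P-values were adjusted by Benjamini-Hochberg across the 12500 tested genes, which held at least 99.92% of each library's counts, and the threshold was 0.05. The common biological coefficient of variation was 0.202. Age was tested with genotype in the model. The SE of each log2 value is its absolute value divided by the square root of the F statistic of that test. CPM uses TMM-scaled library sizes. CPM per kb divides by exonic length, and correlations use log2(CPM + 1). Members and lists were chosen with earlier results of these data known, as were the 3 library sets, which come from chi-square distances between libraries (10.9 to 16.6 per degree of freedom within sets, 16.7 to 38.3 between). Named genes are Furin, the 10 members, the called and the 3 most abundant tested genes of each list, and the 5 nearest to Ahnak, Lgals1 and S100a10. One gene that this rule names is not reported here. Other genes of the lists, such as Anxa1, Anxa4, Dst, Gzmm, Tbx21 and Igfbp4 and those at 0 counts, were named after their values were seen or because an alternative called them. Alternatives were RLE or library-size scaling, no filter beyond 1 count, CPM of at least 1 in 3 libraries, DESeq2 1.42.0, limma-voom, set or age as a factor, 8-week libraries alone, and libraries left out. Replicate numbers follow accession order and pair nothing. The limits given for counts of 0 cover counting error only, while each SD and SE includes variation between libraries.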

Additional observations from a re-analysis of the deposited data

Results flagged for a closer look

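Vim in Furin KO replicate 1, at 383.6 CPM, stood apart from the other 4 Furin KO libraries, which were at 438 to 451 CPM: its gap to the nearest of them was 0.801 of the range of the group. It is the only Furin KO library from a mouse of 7 weeks, and the WT library of 7 weeks had the lowest Vim level of its group, 408 CPM. Of the 8 values examined in this way 1 stood apart, where chance gives about 1 in 20. Age and the other features that these 2 libraries share cannot be told apart.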

How the results depend on the processing

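Of 282 values of single genes under the alternatives, 264 kept their direction and side of the threshold. The number of genes called by genotype, 4, was 38 without a filter, 14 with DESeq2 and 12 with the set as a factor, and 3 to 5 with each library left out. Of the 7 tested genes, 1 was called by genotype without a filter and 1 with the set as a factor (Ahnak in both), and 0 in the other alternatives. Of the related genes, 2 were called without a filter, 2 with DESeq2 and 1 with the set as a factor. The number called by age, 42, was 278 without a filter, 352 with DESeq2 and 114 with limma-voom, and 0 to 58 with each library left out. Of the 7, 1 was called by age without a filter (Ahnak) and 1 with DESeq2 (S100a10). The cause was not tested. Signs turned where a value was near 0. By genotype, Vim was -0.0097 without Furin KO replicate 5 and WT replicate 1 together, and -0.0028 (without WT replicate 1) to 0.069 with each library left out. S100a10 was -0.16 to 0.0046, above 0 without WT replicate 3 or Furin KO replicate 1. By age, Lgals1 was 0.077 with age alone and -0.21 to 0.18 with each library left out (above 0 without WT replicate 2 or Furin KO replicate 1 or 5), and Anxa2 was -0.14 to 0.27 (below 0 without Furin KO replicate 1 or 3). Other size factors moved the median of all genes by less than 0.1. No paired analysis was possible because the labels give no replicate numbers. The fit with the set as a factor groups libraries by their counts, not by a labelled pairing, though the sets follow the order of the sample titles. Depth limits S100a4, S100a6, Lgals3 and, at 66 to 183 counts per library, Anxa2. For S100a4 the overlap with Gm42674 is a limit as well.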
